A study of Mus musculus with 12 samples.

Results

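The 6 genes described here encode platelet-derived growth factor (PDGF) signalling at the cell surface: the receptors Pdgfra and Pdgfrb and the ligands Pdgfa, Pdgfb, Pdgfc and Pdgfd. They were found by symbol among the 24422 features of 12 RNA-seq count tables of the mouse adipose stromal vascular fraction, and all 6 were among the 16713 features that passed the filter on low counts. The set was chosen by its symbols and by one measured value, the lower Pdgfra level of both Tert knock-in groups against their high-fat control. The levels in those 2 contrasts are therefore given as a description, without a test.

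The stromal vascular fraction holds the cells of adipose tissue other than mature adipocytes, among them progenitors, endothelial and mural cells and immune cells. The study placed telomerase reverse transcriptase (Tert) under the promoter of p21, the cell cycle inhibitor gene Cdkn1a, and compared 4 groups with 3 libraries each. All 12 libraries are labelled as primary stromal cells of adipose tissue, and each carries 1 modified p21 allele, so none is wild type at p21. The SD mCherry group has the genotype p21+/mcherry and received a standard diet (SD). The HFD mCherry group has the same p21+/mcherry label and received a high-fat diet (HFD), although the design text writes its genotype as p21+/-, and the labels were followed. The HFD Tert group carries p21+/mcherry-Tert and the HFD TertCi group p21+/mcherry-TertCi, where Ci is known from the study to stand for catalytically inactive Tert. Any Tert from these alleles is made only where the p21 promoter is active. Sex, age, fat depot and length of diet are not given in the sources used here. The labels do not say whether libraries came from separate animals, so the p-values measure only the spread between these libraries.

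PDGF ligands are secreted dimers that pair receptor tyrosine kinases on a neighbouring cell, and the paired receptors phosphorylate each other and start Ras, PI3 kinase, phospholipase C and STAT signalling. Pdgfra is the usual surface marker of fibroblast-like adipocyte progenitors, whereas Pdgfrb marks mural cells (pericytes and smooth muscle) and part of the progenitors. PDGF-A and PDGF-C act mainly through Pdgfra, PDGF-B acts through both receptors and is the endothelial signal that recruits pericytes, and PDGF-D acts mainly through Pdgfrb. PDGF-C and PDGF-D are secreted in a latent form that proteases must cut, and activation of Pdgfra in adipose progenitors is known to drive fibrosis.

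Library totals ran from 16430330 to 19486965 counts. Tert was counted 8 to 78 times in the 6 mCherry libraries and 131 to 304 times in the 6 knock-in libraries, and reads of the mCherry-Tert cassette were 0 in every mCherry library against 33 to 86 in the knock-ins. The 20 adipose progenitor markers, the endothelial markers and the macrophage markers were detected in all 4 groups. Transcripts of another tissue were also present: Crisp1, an epididymis gene, stood at 641 to 14780 CPM in 8 libraries and under 1 CPM in 1 library of each group (SD mCherry 2, HFD mCherry 20, HFD Tert 27, HFD TertCi 31). Its amount was not balanced between groups: HFD mCherry 15 and 17, at 2396 and 641 CPM, held the least of these 8. The summed level of 10 epididymis and epithelium markers was 258 to 5981 CPM in HFD mCherry and 4974 to 55492 in SD mCherry. It was 76.5 to 23134 CPM in HFD Tert and 300 to 34881 in HFD TertCi. CPM is a gene's count scaled to its library's total, after weighting that total by the trimmed mean of M-values (TMM). The 8 and the 4 libraries are called libraries with and without Crisp1 below. This split follows Crisp1 alone, not all epithelial content. SD mCherry 2, without Crisp1, held 4974 CPM of the epididymis and epithelium markers, above the 2093 CPM of HFD mCherry 17, with Crisp1. Diet ratios among libraries without Crisp1 set SD mCherry 2 against HFD mCherry 20, at 258 CPM of these markers, so they are not free of other tissue.

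Pdgfra lies on chromosome 5 of GRCm38, from 75152292 to 75198215 on the plus strand in GENCODE M21, and Pdgfc on chromosome 3 from 81036416 to 81214040 on the plus strand. Pdgfd lies on chromosome 9 from 6168584 to 6378850 on the plus strand. The 250 bases before the RefSeq start site (GRCm38.p6) are shown for these 3 members, each with a single start site among the promoters used. They are Pdgfra, whose groups stood furthest apart, and 2 of its relatives for comparison. Pdgfrb was left out of the promoter search. The windows are chr5:75152001-75152250, chr3:81036166-81036415 and chr9:6168236-6168485, all on the plus strand, and capitals mark a match to a searched motif.
Pdgfra: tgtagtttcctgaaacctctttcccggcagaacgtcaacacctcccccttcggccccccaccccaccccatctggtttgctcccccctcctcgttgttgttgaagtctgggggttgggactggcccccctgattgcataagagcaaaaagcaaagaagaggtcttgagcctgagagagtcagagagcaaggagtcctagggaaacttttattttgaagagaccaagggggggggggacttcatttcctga
Pdgfc: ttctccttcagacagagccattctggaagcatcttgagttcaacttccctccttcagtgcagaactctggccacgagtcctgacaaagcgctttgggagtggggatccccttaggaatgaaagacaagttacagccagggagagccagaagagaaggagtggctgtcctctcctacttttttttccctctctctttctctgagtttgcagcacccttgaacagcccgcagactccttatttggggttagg
Pdgfd: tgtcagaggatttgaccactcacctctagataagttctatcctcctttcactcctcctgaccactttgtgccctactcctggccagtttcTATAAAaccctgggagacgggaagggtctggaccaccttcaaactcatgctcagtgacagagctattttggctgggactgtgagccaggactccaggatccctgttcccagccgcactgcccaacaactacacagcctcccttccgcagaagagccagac
The motifs searched on both strands were the TATA box TATAAA, the CCAAT box CCAAT and the GC box GGGCGG, which do not overlap each other in these windows. The Pdgfd window holds TATAAA 160 bases before the start site, a sequence that 12.37% of the 32851 RefSeq windows of this length contain. None of the 3 motifs occurs in the Pdgfra or Pdgfc window, while 33.85% of all windows contain CCAAT and 32.74% contain GGGCGG, so these letters are only absent from this stretch. The GC content was 54.4% for Pdgfra, 50.8% for Pdgfc and 53.6% for Pdgfd.

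Levels of different genes were compared within a library per kilobase of exon. Pdgfb, the ligand of both receptors, was the highest of the 4 ligands in 12 of 12 libraries. It made up 52.3% to 81.5% of the summed ligand level per kilobase, with a median of 68.0%. Pdgfa held 9.25% to 28.9% of that sum, Pdgfd 2.97% to 18.6% and Pdgfc 1.58% to 10.7%. Among the receptors, Pdgfra exceeded Pdgfrb per kilobase of exon in 2 libraries, SD mCherry 1 and HFD mCherry 15, and in 5 libraries when coding length replaced exon length.

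**Figure D1:**
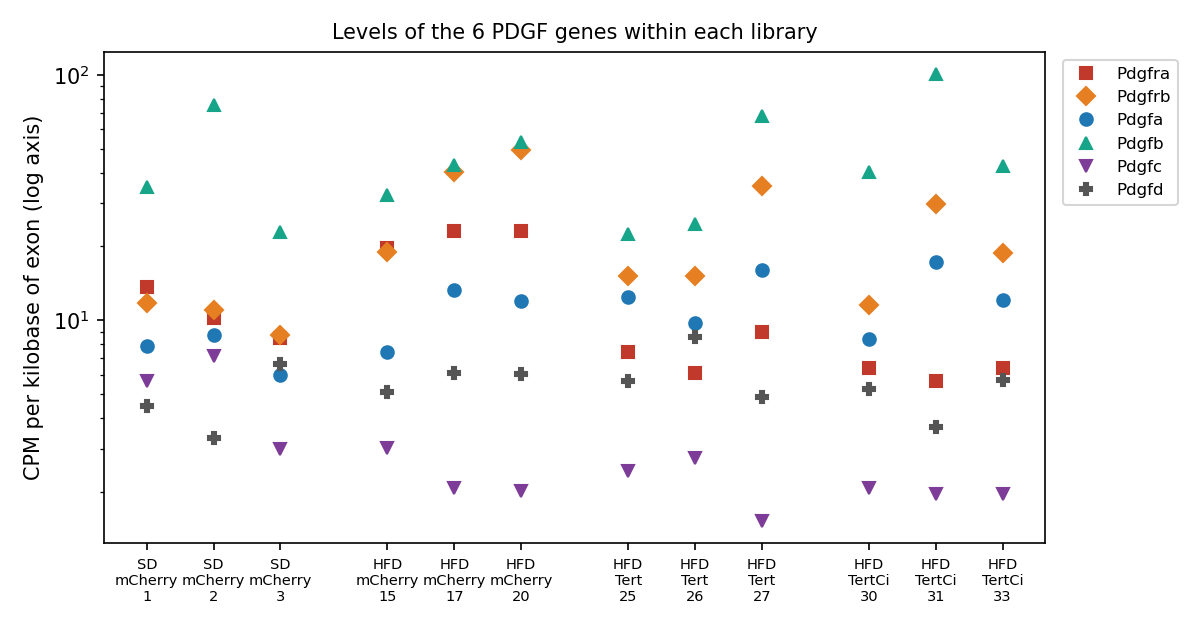
Level of the 6 PDGF genes in each of the 12 libraries, as CPM per kilobase of exon on a log axis; each point is 1 gene in 1 library. Pdgfb is the highest ligand in all 12 libraries, and Pdgfc has the lowest level in every HFD library.

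The receptor balance differed between groups. Pdgfra per kilobase divided by Pdgfrb per kilobase was 1.02 ± 0.123 (SD, n = 3) in SD mCherry and 0.694 ± 0.302 in HFD mCherry. The same ratio was 0.383 ± 0.120 in HFD Tert and 0.361 ± 0.183 in HFD TertCi. Every knock-in library, at 0.189 to 0.554, stood below every SD mCherry library, at 0.929 to 1.16, while the HFD mCherry range of 0.466 to 1.04 overlapped both sides. No test was run on this ratio, since it contains the value that chose the set.

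Pdgfra was highest in the high-fat mCherry libraries and lowest in the TertCi libraries. It stood at 198, 232 and 232 CPM in HFD mCherry 15, 17 and 20, and at 137, 103 and 84.5 CPM in SD mCherry 1, 2 and 3. The HFD Tert libraries 25, 26 and 27 held 74.3, 61.3 and 89.6 CPM, and the HFD TertCi libraries 30, 31 and 33 held 64.3, 56.7 and 63.9 CPM. All 6 knock-in libraries lay below all 3 HFD mCherry libraries, and the knock-in groups overlapped each other. The SD mCherry libraries also lay below all HFD mCherry libraries, overlapped HFD Tert (84.5 against 89.6 CPM) and lay above every HFD TertCi library. Pdgfra is well measured at this depth, with 881 to 3877 counts per library.

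**Figure D2:**
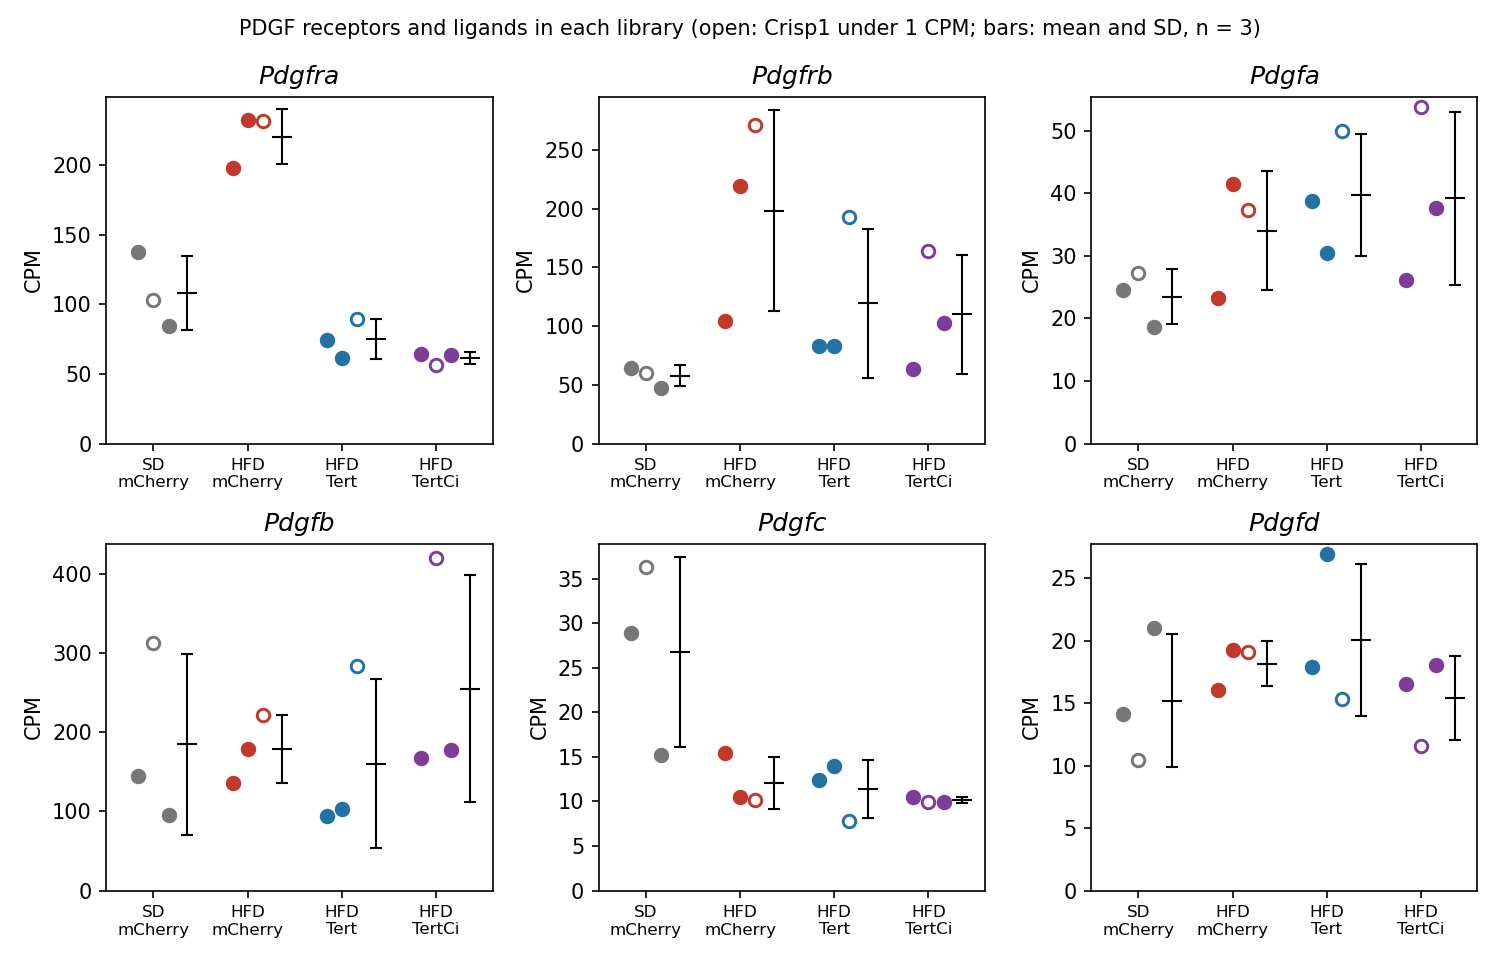
CPM of each PDGF gene in every library of the 4 groups, with 1 panel per gene, bars for the mean and SD (n = 3) and open circles for the 4 libraries with Crisp1 under 1 CPM. In the Pdgfra panel the HFD mCherry libraries, at 198 to 232 CPM, stand apart from all 9 others; the other 5 genes have overlapping HFD groups.

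The mean Pdgfra level was 220.5 ± 19.6 CPM (SD, n = 3) in HFD mCherry, 75.1 ± 14.2 CPM in HFD Tert and 61.6 ± 4.24 CPM in HFD TertCi. The fitted level was 2.94-fold lower in HFD Tert than in HFD mCherry, a log2 fold change of -1.55 ± 0.218 (SE). In HFD TertCi it was 3.58-fold lower, a log2 fold change of -1.84 ± 0.220. Both contrasts use the same 3 HFD mCherry libraries and both chose the set, so no p is given. The high-fat diet contrast uses them as well: Pdgfra was 2.04-fold higher in HFD mCherry than in SD mCherry (108 ± 26.8 CPM), a log2 fold change of 1.03 ± 0.215, again without a p. In this bulk tissue, fewer cells of a type and less RNA per cell cannot be told apart.

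By kind of library, the same values that chose the set divide as follows, as a description. Among libraries with Crisp1 at 100 CPM or more (2 per group), the log2 ratio of mean Pdgfra was -1.66 for HFD Tert and -1.75 for HFD TertCi against HFD mCherry. Among the libraries under that level (1 per group), it was -1.37 and -2.03. The corresponding diet ratios were 0.95 and 1.17.

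Between the knock-ins, Pdgfra had a fitted level 0.28 ± 0.213 (SE) log2 units higher in HFD Tert than in HFD TertCi. Both groups' low levels entered the choice of the set, so this difference is given without a test as well. Their ranges, 61.3 to 89.6 and 56.7 to 64.3 CPM, overlapped.

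Pdgfra was also set against the summed CPM of 20 adipose progenitor markers that do not include it. The marker sum ran from 6466 to 13943 CPM in HFD mCherry, 6879 to 11153 in HFD Tert, 6969 to 11929 in HFD TertCi and 5187 to 8400 in SD mCherry, so the HFD groups overlapped in it. Pdgfra amounted to 2.17% ± 0.773 (SD, n = 3) of the marker sum in HFD mCherry and 1.56% ± 0.313 in SD mCherry. It amounted to 0.885% ± 0.170 in HFD Tert and 0.737% ± 0.233 in HFD TertCi. All 6 knock-in libraries, at 0.476% to 1.08%, lay below all 6 mCherry libraries, whose lowest value was 1.22%. This share contains the Pdgfra level that chose the set, so it is a description and was not tested. The sum weighs markers by their level: over the 12 libraries Dcn averaged 2285 CPM, Icam1 2149, Gpx3 1537 and Lum 616. Their log2 fold changes against HFD mCherry were -0.49, 0.11, -0.11 and -1.98 in HFD Tert. In HFD TertCi they were -0.78, 0.35, 0.49 and -2.29. Of the 20 markers, Cd248 and Clec11a lay below HFD mCherry without overlap in both knock-ins and Lum in HFD TertCi, and none lay above it. These 2 and 3 of 20 are near the 11.1% and 12% of all genes that lay below it without overlap. DESeq2 called 3 of 20 in each knock-in, against 5.07% and 4.09% of all genes, and edgeR 0. An unadjusted p under 0.05 was found for 3 and 4, against 16.4% and 14.7%. The fitted level was lower for 13 and 14 of 20, against 53.8% and 52.6% of all genes. The median log2 fold change was -0.19 in HFD Tert and -0.27 in HFD TertCi, against -0.05 and -0.04 over all genes.

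**Figure D3:**
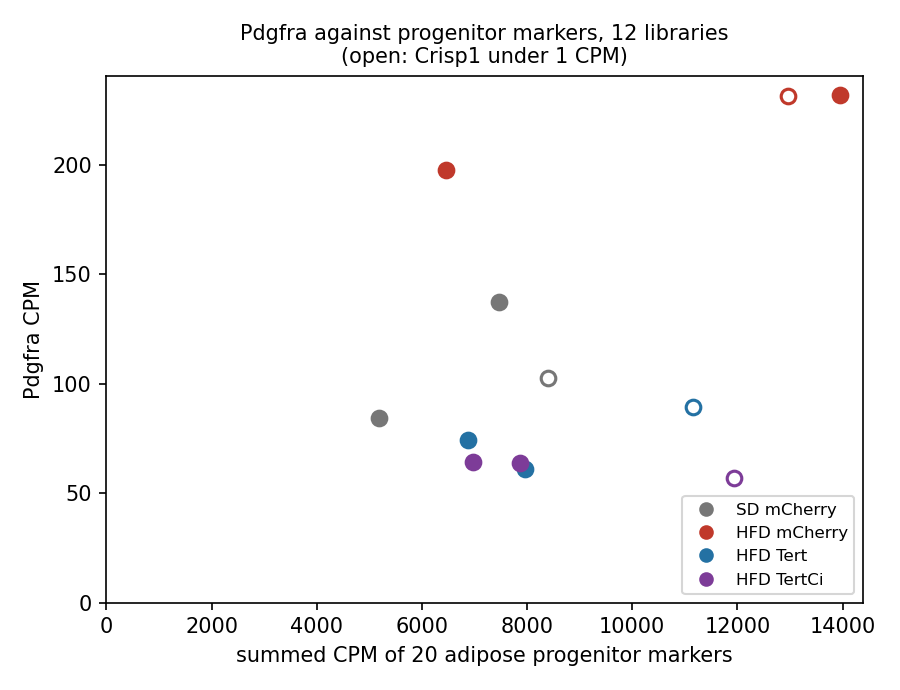
Pdgfra CPM against the summed CPM of 20 adipose progenitor markers, 1 point per library, coloured by group, with open circles for libraries with Crisp1 under 1 CPM. The knock-in libraries, at 56.7 to 89.6 CPM of Pdgfra, lie below the HFD mCherry libraries, at 198 to 232 CPM. The marker sum runs from 6466 to 13943 CPM in HFD mCherry, 6879 to 11153 in HFD Tert and 6969 to 11929 in HFD TertCi.

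The 5 genes whose log2 CPM followed Pdgfra most closely over the 12 libraries, among the 10593 genes that averaged 10 CPM or more, were Wwp1, Acvr2a, Elmo2, Dtx4 and Vstm4. Wwp1, which encodes a ubiquitin ligase, had a Pearson r of 0.974 and a Spearman rho of 0.944, and its deviations from the group means had an r of 0.865 with those of Pdgfra. Mean Wwp1 was 73.2 CPM in HFD mCherry, 56.9 in SD mCherry, 43.7 in HFD TertCi and 48.2 in HFD Tert, a narrower spread in the same order as Pdgfra. Acvr2a, an activin receptor, had an r of 0.933. These values describe libraries that share their groups and their makeup. With Spearman in place of Pearson, 1 of the 5 names stayed among the 5 highest, and with deviations from the group means none did.

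Pdgfrb was higher in all 3 HFD mCherry libraries than in the SD mCherry libraries but missed the adjusted threshold. Its level was 64.7, 60.4 and 47.5 CPM in SD mCherry 1, 2 and 3, and 104, 219 and 271 CPM in HFD mCherry 15, 17 and 20. The HFD mCherry libraries all lay above the SD mCherry libraries, with a wide spread among themselves. The group means were 57.5 ± 8.94 and 198 ± 85.4 CPM (SD, n = 3), and the fitted difference was 3.45-fold, a log2 fold change of 1.79 ± 0.467 (SE). The unadjusted p was 0.00299 and the adjusted p 0.0793 by edgeR's quasi-likelihood test. Over 20 alternative fits the adjusted p ran from 0.00582 to 0.299 and was under 0.05 in 5. These were DESeq2 (0.00582), an epithelial score as covariate (0.0303), a block for Crisp1 (0.0214) and the edgeR fits without HFD mCherry 15 (0.0204) or HFD Tert 27 (0.0431). With the epithelial score the log2 fold change was 1.15. The log2 ratio was 1.53 among libraries with Crisp1 and 2.17 among those without.

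In the knock-ins Pdgfrb overlapped its high-fat control. HFD Tert 25, 26 and 27 held 82.6, 83.0 and 193 CPM, and HFD TertCi 30, 31 and 33 held 63.5, 164 and 103 CPM. In each group the library without Crisp1 was the highest, except in SD mCherry. The log2 fold change against HFD mCherry was -0.73 ± 0.456 (SE) for HFD Tert and -0.85 ± 0.457 for HFD TertCi, given without a test. HFD Tert and HFD TertCi differed by 0.12 ± 0.454 log2 units, with an adjusted p of 1 by edgeR and a 95% interval from -0.88 to 1.12, which reaches up to a 2.17-fold higher level.

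The mural cell markers ordered the groups differently from Pdgfrb. Their summed level over 12 genes was 1927 to 3544 CPM in HFD mCherry against 3161 to 24646 in SD mCherry, 3234 to 24015 in HFD Tert and 4498 to 15179 in HFD TertCi, and all 12 were detected. Pdgfrb thus equalled 3.95% to 14.1% of the mural sum in HFD mCherry, 0.193% to 1.91% in SD mCherry, 0.346% to 5.96% in HFD Tert and 0.418% to 3.64% in HFD TertCi. On the high-fat diet the markers split: Abcc9, Notch3 and Higd1b were higher without overlap, while Acta2, Tagln and Cspg4 were lower without overlap. These are 3 and 3 of 12, against 13.9% and 11.6% of all genes. The 12 mural genes had a median log2 fold change of -0.97. The part of cell makeup in the Pdgfrb values, and that of the other tissue in the mural sum, was not tested. The 5 genes that followed Pdgfrb most closely were Arhgef2 (r = 0.990 over 12 libraries), Peak1 (0.990), Tm6sf1 (0.989), Pcdh19 (0.986) and Cflar (0.985).

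Pdgfa, a ligand of Pdgfra, varied 2.88-fold over the 12 libraries with overlapping groups. It stood at 24.5, 27.3 and 18.7 CPM in SD mCherry 1, 2 and 3, and at 23.3, 41.4 and 37.3 CPM in HFD mCherry 15, 17 and 20. It stood at 38.8, 30.4 and 49.9 CPM in HFD Tert 25, 26 and 27, and at 26.2, 53.7 and 37.7 CPM in HFD TertCi 30, 31 and 33. Of the HFD mCherry libraries 2 lay above all SD libraries and 1 within their range. The diet difference was 0.53 ± 0.317 log2 units (SE), with an adjusted p of 0.313 by edgeR. Against HFD mCherry it was 0.22 ± 0.316 log2 units higher in HFD Tert and 0.21 ± 0.316 in HFD TertCi, given without a test. Without HFD mCherry 15 these became 0.0123 and -0.00708, and the HFD TertCi value became -0.0889 without HFD TertCi 31. HFD Tert and HFD TertCi differed by 0.02 ± 0.316 log2 units, with a 95% interval from -0.68 to 0.72 and an adjusted p of 1 by edgeR.

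Pdgfb, the endothelial ligand that draws mural cells to vessels, had the widest spread among the ligands in 3 of the 4 groups. Its SD was 56.1% to 66.8% of the mean in SD mCherry, HFD Tert and HFD TertCi and 24.3% in HFD mCherry, where that of Pdgfa was 28.0%. It was measured at 145, 313 and 95.6 CPM in SD mCherry 1, 2 and 3, and at 135, 179 and 222 CPM in HFD mCherry 15, 17 and 20. It was measured at 93.9, 103 and 284 CPM in HFD Tert 25, 26 and 27, and at 167, 420.1 and 177 CPM in HFD TertCi 30, 31 and 33. The library without Crisp1 was the highest of its group in 4 of 4 groups, and all groups overlapped. The diet difference was -0.05 ± 0.556 log2 units (SE), with an adjusted p of 0.965 by edgeR, and it changed sign to 0.57 without SD mCherry 2 and to 0.12 without HFD mCherry 15 or with a block for Crisp1. Within kinds of library the log2 ratio was 0.39 with Crisp1 and -0.49 without. Against HFD mCherry the log2 fold change was -0.16 ± 0.556 for HFD Tert and 0.51 ± 0.558 for HFD TertCi. The first ran from -0.86 without HFD Tert 27 to 0.11 without HFD Tert 25, and the second became -0.0515 without HFD TertCi 31. HFD Tert was 0.67 log2 units below HFD TertCi (log2 fold change -0.67 ± 0.559), with a 95% interval from -1.90 to 0.56 and an adjusted p of 1 by edgeR.

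Relative to endothelial markers, Pdgfb was highest on the standard diet. It equalled 11.97% ± 5.49 (SD, n = 3) of the summed CPM of 12 endothelial markers in SD mCherry and 5.47% ± 0.934 in HFD mCherry. It equalled 3.20% ± 0.843 in HFD Tert and 5.04% ± 0.878 in HFD TertCi. The SD mCherry values, at 7.74% to 18.2%, lay above those of all 9 HFD libraries, whose highest was 6.21%. The endothelial sum itself was 1236 to 1724 CPM in SD mCherry against 2178 to 7348 CPM over the HFD libraries, and all 12 markers were detected. Pf4 and the other platelet markers, another known source of PDGF, summed to 89.4 to 296 CPM over the 12 libraries.

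Pdgfc, a latent ligand of Pdgfra, was the only member with a lower mean in all 3 high-fat groups than on the standard diet by more than 2-fold. It stood at 28.9, 36.3 and 15.2 CPM in SD mCherry 1, 2 and 3, and at 15.4, 10.5 and 10.2 CPM in HFD mCherry 15, 17 and 20. It stood at 12.4, 14.0 and 7.76 CPM in HFD Tert 25, 26 and 27, and at 10.5, 9.98 and 9.92 CPM in HFD TertCi 30, 31 and 33. The mCherry groups overlapped by 1 library on each side, at 15.2 and 15.4 CPM. Means were 26.8 ± 10.7 CPM in SD mCherry and 12.05 ± 2.92 CPM in HFD mCherry (SD, n = 3), a 2.22-fold lower fitted level with a log2 fold change of -1.15 ± 0.345 (SE). The unadjusted p was 0.00682 and the adjusted p 0.0985 by edgeR. It was under 0.05 in 2 of 20 alternative fits, DESeq2 (0.0175) and edgeR without HFD mCherry 15 (0.0477), over a range from 0.0175 to 0.35. The log2 ratio was -0.77 among libraries with Crisp1 and -1.83 among those without. The fitted differences between the HFD groups were smaller: -0.08 ± 0.342 log2 units for HFD Tert and -0.25 ± 0.342 for HFD TertCi against HFD mCherry. The HFD Tert value became 0.14 without HFD mCherry 15. HFD Tert and HFD TertCi differed by 0.17 ± 0.342 log2 units, with a 95% interval from -0.59 to 0.92 and an adjusted p of 1 by edgeR.

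Pdgfd, the latent ligand of Pdgfrb, was the steadiest member, with a 2.57-fold range. It stood at 14.2, 10.5 and 20.97 CPM in SD mCherry 1, 2 and 3, and at 16.1, 19.2 and 19.1 CPM in HFD mCherry 15, 17 and 20. It stood at 17.9, 26.9 and 15.3 CPM in HFD Tert 25, 26 and 27, and at 16.5, 11.6 and 18.0 CPM in HFD TertCi 30, 31 and 33. The library without Crisp1 was the lowest of its group in 3 of 4 groups, the reverse of Pdgfb. The diet difference was 0.26 ± 0.312 log2 units (SE), with an adjusted p of 0.622 by edgeR. Against HFD mCherry it was 0.14 ± 0.312 for HFD Tert, which became -0.13 without HFD Tert 26, and -0.24 ± 0.312 for HFD TertCi. HFD Tert and HFD TertCi differed by 0.38 ± 0.312, with a 95% interval from -0.31 to 1.07 and an adjusted p of 1 by edgeR.

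**Figure D4:**
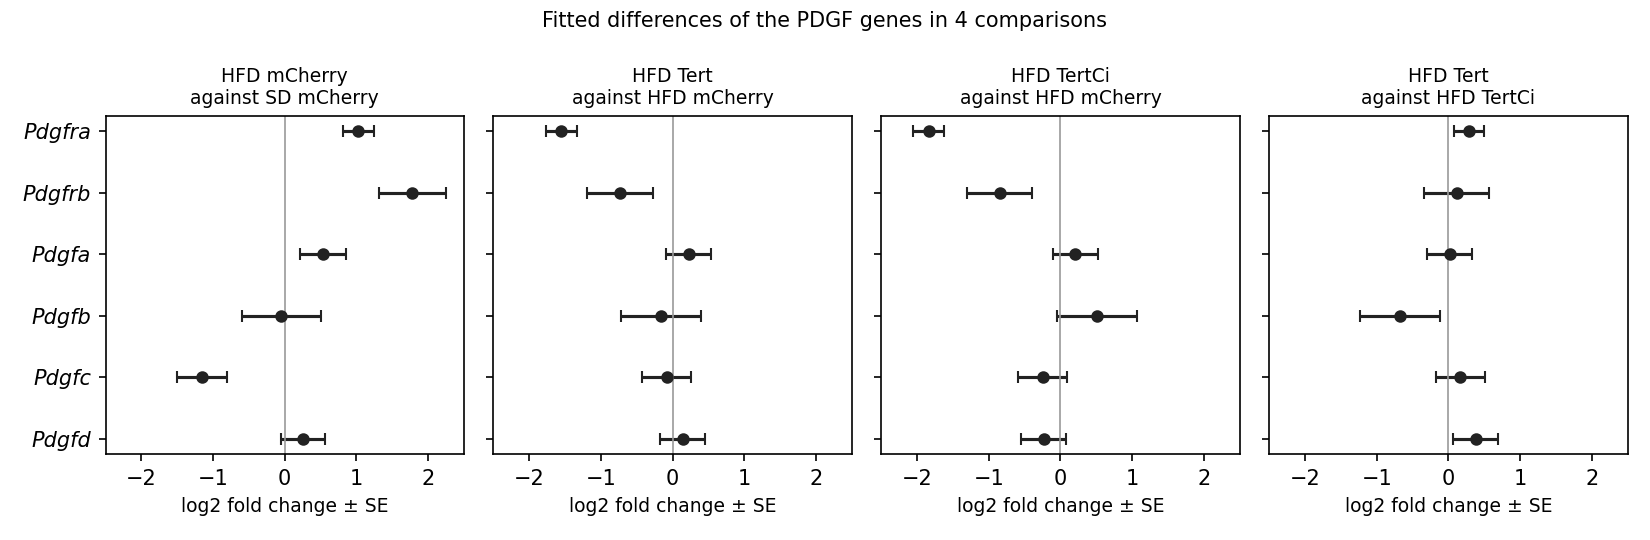
Fitted log2 fold changes of the 6 PDGF genes, with SE, in 4 comparisons, 1 panel each. Pdgfra lies at -1.55 and -1.84 in the 2 knock-in panels and at 1.03 in the diet panel; in the panel of HFD Tert against HFD TertCi no member lies further from 0 than Pdgfb, at -0.67.

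The genes with the most similar profile to each ligand were also noted as a description over the same 12 libraries. They were Foxp4 (r = 0.977), Cpne2 (0.971) and Kpnb1 (0.967) for Pdgfa, and Aif1l (0.936), Chkb (0.932) and Ikbkb (0.926) for Pdgfb. For Pdgfc they were Cldn12 (0.976), Nat6 (0.970) and Fam213a (0.966), and for Pdgfd Zfp260 (0.930), Cacna2d1 (0.919) and Prune2 (0.919).

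Counted together, no member passed edgeR's adjusted threshold of 0.05 in a comparison that could be tested. In the diet comparison this was 0 of the 5 members tested, where 0.0479% of all 16713 genes passed. At an unadjusted p under 0.05 it was 2 of 5, Pdgfrb and Pdgfc, against 24.1% of all genes. DESeq2 also called Pdgfrb and Pdgfc, 2 of 5, against 12.4% of all genes, and limma-voom called 0 of 5 against 0% of all genes. Of the 6 members, 2 were higher without overlap on the high-fat diet, against 13.9% of all genes, and 0 were lower, against 11.6%. The 2 were Pdgfrb and Pdgfra, and the Pdgfra level of these HFD mCherry libraries entered the choice of the set. The Pdgfrb level was not part of that rule. Its separation still uses the same HFD mCherry libraries, and the members were chosen with earlier results of these data known, so it is not independent. For HFD Tert against HFD TertCi, 0 of the 5 members tested passed by edgeR (0% of all genes), by an unadjusted p (1.36%), by DESeq2 (0.0539%) or by limma-voom (0%). No member separated those groups, where 2.55% of all genes were higher and 2.58% lower without overlap. In the contrasts that chose the set, Pdgfra alone separated from HFD mCherry, downward, where 11.1% of all genes did so in HFD Tert and 12% in HFD TertCi. The edgeR count over all genes rested on single libraries: 8 genes passed for diet with all 12 libraries and 2082 without HFD mCherry 15.

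Around the 6 members, the genes that cut and bind PDGF had a higher fitted level on the high-fat diet in 10 of 11 cases. The list holds 11 genes: proteases such as Furin and Plau, the co-receptors Lrp1 and Nrp1, and the PDGF-binding matrix protein Sparc. None passed edgeR's adjusted threshold (0.0479% of all genes did). An unadjusted p under 0.05 was found for 7 of 11, against 24.1% of all genes, and DESeq2 called 5, against 12.4%. Higher without overlap were 5 (Furin, Pcsk5, Lrp1, Nrp2 and Sparc), against 13.9% of all genes. The list's median log2 fold change was 1.09, against -0.08 over all genes. Sparc was at 5621 CPM in HFD mCherry and 1126 CPM in SD mCherry, a log2 fold change of 2.32 ± 0.435 (SE) with an adjusted p of 0.0659 by edgeR. Lrp1, a co-receptor that binds Pdgfrb, was at 1458 and 368 CPM, a log2 fold change of 1.98 ± 0.507 with an adjusted p of 0.0761 by edgeR.

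In the knock-ins the same list had a median log2 fold change of -0.72 for HFD Tert and -0.66 for HFD TertCi, against -0.05 and -0.04 over all genes. By edgeR 0 of 11 passed in either, where 0% and 0.012% of all genes did. At an unadjusted p under 0.05 it was 4 and 5 of 11, against 16.4% and 14.7% of all genes, and DESeq2 called 1 and 2, against 5.07% and 4.09%. Limma-voom called 0 in both, against 0% and 0.012%. Below HFD mCherry without overlap were Pcsk5 and Plat in HFD Tert, and Furin, Pcsk5, Plat and Lrp1 in HFD TertCi. These are 2 and 4 of 11, against 11.1% and 12% of all genes. Plat, tissue plasminogen activator, is the protease best known for activating PDGF-C. None of the 11 was higher without overlap, against 9.99% and 9.45% of all genes. Mean Lrp1 was 453 CPM in HFD Tert and 373 CPM in HFD TertCi.

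The 34 genes of intracellular receptor signalling were near the share of all genes. On the high-fat diet 9 had an unadjusted p under 0.05 (24.1% of all genes), DESeq2 called 3 (12.4%) and edgeR 0 (0.0479%). Higher without overlap were 7 (13.9% of all genes), and the median log2 fold change was 0.26. Stat3 (0.53 ± 0.299, SE), Crk (0.41 ± 0.264), Ptpn11 (-0.03 ± 0.165) and Akt1 (0.55 ± 0.234), the 4 with the highest mean CPM, did not pass. Without overlap, 3 were lower in HFD Tert (Shc1, Plcg1 and Rasa1) and 5 in HFD TertCi (Sos2, Shc1, Pik3r2, Plcg1 and Rasa1). Genes higher without overlap included Yes1 and Hras in HFD Tert and Sos1 and Hras in HFD TertCi. Shc1 and Plcg1 are adaptors and effectors that dock on the activated receptors, and Rasa1 is a Ras inhibitor that docks there too. An unadjusted p under 0.05 was found for 5 and 3 of the 34, against 16.4% and 14.7% of all genes, DESeq2 called 1 in each, against 5.07% and 4.09%, and edgeR 0. The shares of all genes lower without overlap were 11.1% and 12%, those higher 9.99% and 9.45%, and the median was -0.04 for HFD Tert and -0.08 for HFD TertCi.

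Of the 14 genes that turn the receptors off, 4 were higher on the high-fat diet without overlap (Cblb, Ptprj, Sh3kbp1 and Spry4) and 0 were lower. The shares of all genes were 13.9% and 11.6%. An unadjusted p under 0.05 was found for 7 (24.1% of all genes), DESeq2 called 4 (12.4%) and edgeR 0 (0.0479%), and the median log2 fold change was 0.65. Ptprj, a receptor phosphatase, had a log2 fold change of 1.56 ± 0.436 (SE) with an adjusted p of 0.0889 by edgeR. Against HFD mCherry the median was -0.33 in HFD Tert and -0.28 in HFD TertCi, with Cbl, the ubiquitin ligase of activated receptors, lower without overlap in both. Ptprj and Socs3 were lower without overlap in HFD TertCi as well. These are 1 and 3 of 14 genes, against 11.1% and 12% of all genes. DESeq2 called 0 and 1 of the 14, against 5.07% and 4.09%, edgeR 0 in both, and 3 and 4 had an unadjusted p under 0.05, against 16.4% and 14.7%.

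Among 16 related receptor tyrosine kinases and ligands, the high-fat diet separated 6 upward (Kit, Kitl, Csf1r, Csf1, Flt3 and Flt1) and Vegfb downward. The shares of all genes were 13.9% upward and 11.6% downward. EdgeR called 0 (0.0479% of all genes), DESeq2 4 (12.4%), and 7 had an unadjusted p under 0.05 (24.1%). Csf1r, the macrophage colony-stimulating factor receptor and a close relative of Pdgfra, was at 237.7 ± 99.3 CPM (SD, n = 3) in HFD mCherry, 49.7 ± 25.4 in SD mCherry, 57.9 ± 13.5 in HFD TertCi and 65.1 ± 41.5 in HFD Tert. Its diet log2 fold change was 2.26 ± 0.554 (SE) with an adjusted p of 0.0729 by edgeR, and it was below HFD mCherry without overlap in both knock-ins. Its ligand Csf1 did not separate the HFD groups, with log2 fold changes of -0.23 ± 0.491 and 0.09 ± 0.490 against HFD mCherry. In HFD TertCi Kit, Il34 and Vegfa were also lower and Pgf higher without overlap. With Csf1r, 1 of 16 was lower in HFD Tert and 4 in HFD TertCi, against 11.1% and 12% of all genes. Higher were 0 and 1, against 9.99% and 9.45%. DESeq2 called 1 of the 16 in each knock-in, against 5.07% and 4.09% of all genes, and edgeR 0. In each, 1 had an unadjusted p under 0.05, a smaller share than the 16.4% and 14.7% of all genes. The 20 immediate early genes that growth factors induce had a median diet log2 fold change of -0.31, with Ccl2 and Dusp1 higher and Egr1 and Ier2 lower without overlap. These are 2 and 2 of 20, against 13.9% and 11.6% of all genes. DESeq2 called 6 of these 20 (12.4% of all genes) and edgeR 0, and 9 had an unadjusted p under 0.05 (24.1%). Egr1, Ier2 and Ier3 were above HFD mCherry without overlap in both knock-ins, Fos was above it in HFD Tert and below it in HFD TertCi, and Egr2 was below it in HFD Tert. Above it were thus 4 and 3 of 20, against 9.99% and 9.45% of all genes. Below it were 1 and 1, against 11.1% and 12%. For these 20 in the knock-ins, edgeR and DESeq2 called 0, and 2 had an unadjusted p under 0.05 in each, again a smaller share than the 16.4% and 14.7% of all genes.

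Fibrosis and matrix genes, such as the collagens that progenitors make, were counted in the same comparisons, which share the HFD mCherry libraries. Of 20 such genes, 17 were higher on the high-fat diet without overlap (13.9% of all genes) and 1 (Ctgf) lower (11.6%). An unadjusted p under 0.05 was found for 19 (24.1% of all genes), DESeq2 called 18 (12.4%) and edgeR 0, and the median log2 fold change was 2.45. In the knock-ins the median was -1.46 for HFD Tert, with 3 lower without overlap (11.1% of all genes), and -1.70 for HFD TertCi, with 9 lower (12%). Ctgf was higher without overlap in both, 1 of 20, against 9.99% and 9.45% of all genes. EdgeR called 0 in both, and DESeq2 4 and 11, against 5.07% and 4.09% of all genes. An unadjusted p under 0.05 by edgeR was found for 15 and 18 of the 20, against 16.4% and 14.7% of all genes. Macrophage markers were also highest in HFD mCherry: the 12 genes summed to 2563 to 6480 CPM in HFD mCherry, 1175 to 1299 in SD mCherry, 940 to 2610 in HFD Tert and 1221 to 1871 in HFD TertCi, and all 12 were detected. The part of macrophage content in the Pdgfra values was not tested.

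For HFD Tert against HFD TertCi, the 5 lists of PDGF processing, signalling, downregulation, related receptors and immediate early genes held 0 calls by edgeR, DESeq2 or limma-voom and 0 genes with an unadjusted p under 0.05. Their medians lay between -0.06 and 0.19 log2 units. Fos alone among them separated the groups, higher in HFD Tert. Genes named here for lying apart without overlap, other than those with the 4 highest levels of each list, were chosen after their values were seen.

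Counting could have mixed some transcripts with the members, because the strand setting is not given in the sources used here. In GENCODE M21 the exons of Pdgfra overlap antisense models by 456 bases (Gm42802) and 166 bases (Gm42803), and the miRNA gene Mir7025 by 30 bases of the same strand. Exons of Pdgfa overlap an antisense model by 813 bases and those of Pdgfc by 147 bases. Exons of Pdgfb and Pdgfd overlap none.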

How the data were processed

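Poly(A) RNA of 12 stromal vascular fraction samples was sequenced. The authors aligned the reads to mm10 with Subread, handled them with SAMtools and counted them per gene with featureCounts 1.6.4, per the submitters' processing notes, and deposited raw counts for each library. The annotation and strand setting are not given in the sources used here. Every feature carried a gene name, and totals were 16430330 to 19486965 counts. Replicates of a group always differed beyond counting error, with a chi-square of at least 20.5 for each degree of freedom.

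Counts were fitted with edgeR 4.0.16 (R 4.3.3): TMM scaling, filterByExpr, 4 groups over all 12 libraries in 1 robust quasi-likelihood fit, and p adjusted by Benjamini-Hochberg over 16713 genes with a threshold of 0.05. The SE is the size of the log2 fold change divided by the square root of F. The script was tested on simulated data. Alternatives were DESeq2 1.42.0, limma-voom (limma 3.58.1), RLE factors, library size only, no low count filter, only the groups compared, the mean log2 CPM of epididymis and epithelium markers as a covariate, and leaving out each library. A 2-level block for Crisp1 at 100 CPM was chosen after seeing the data. With 3 libraries against 3, an exact permutation test cannot go below 0.1, so single ratios were not tested.

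The text names the 6 members, the genes most like them and the 4 genes of highest mean CPM in each list. The members, lists and rule were chosen with earlier results of these data known. No test is given for Pdgfra, whose levels in the HFD groups chose the set, although one between the knock-ins was planned. Likeness used log2 CPM with a prior count of 2. Exon lengths came from GENCODE M21 and promoter sequences from RefSeq. The values of 1 gene of the receptor signalling list are not reported here.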

Additional observations from a re-analysis of the deposited data

How the results depend on the processing

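No paired analysis was possible because replicate numbers in the labels differ between all 4 groups. Pdgfra moved beyond its replicate spread for HFD TertCi against HFD mCherry with library size only, at -1.72 log2 units. For Pdgfrb the diet log2 fold change was 1.76 with DESeq2, 1.15 with the epithelial covariate and 1.71 with the Crisp1 block, each past the threshold, and ran from 1.49 to 2.09 when 1 library was left out. For Pdgfc it was -1.17 with DESeq2, past the threshold, and ran from -1.43 to -0.87. For Pdgfb it turned to 0.11 with limma-voom and 0.12 with the Crisp1 block, and ran from -0.36 to 0.57. In HFD Tert against HFD mCherry Pdgfb ran from -0.86 to 0.11. In HFD Tert against HFD TertCi the epithelial covariate turned Pdgfrb to -0.0399 and Pdgfa to -0.0210, and leaving out 1 library gave -0.41 to 0.52 for Pdgfrb, -0.20 to 0.31 for Pdgfa and -0.00570 to 0.38 for Pdgfc. The cause was not tested.

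The number of genes called for diet was 8 in the reported fit, 2069 with DESeq2, 0 with limma-voom, 2 with RLE factors, 0 with only the groups compared, 427 with the epithelial covariate, 1508 with the Crisp1 block and 0 to 2082 without 1 library. For HFD Tert against HFD mCherry it was 0, 847 with DESeq2, 398 with the epithelial covariate and 0 to 51 without 1 library. For HFD TertCi against HFD mCherry it was 2, 684 with DESeq2, 1 with library size only, 0 with only the groups compared, 190 with the epithelial covariate and 0 to 198 without 1 library. For HFD Tert against HFD TertCi it was 0, and 9 with DESeq2.

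Pdgfra exceeded Pdgfrb in 5 libraries by coding length and in 2 by exon length. Of the genes most like each member, Spearman kept 1 of 5 for Pdgfra, 0 of 5 for Pdgfrb, and 1 of 3 for Pdgfb, Pdgfc and Pdgfd. Deviations from group means kept 0 of 5 for Pdgfra, 1 of 5 for Pdgfrb, 1 of 3 for Pdgfb, and 0 of 3 for Pdgfa, Pdgfc and Pdgfd.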
